A study of Mus musculus with 5 samples.

Results

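The insulin-like growth factor (IGF) system of LPS-treated bone marrow-derived macrophages (BMDMs) was described in 10 genes, of 21878 in the deposited gene table. These are the ligands Igf1 and Igf2, the receptors Igf1r and Igf2r, and the binding proteins Igfbp2, Igfbp3, Igfbp4, Igfbp5, Igfbp6 and Igfbp7. The genes were taken as a family by name, but the family was chosen from earlier results of the same comparison between genotypes. Their levels and differences are therefore given as a description, with no test. All 10 reached 1 FPKM (a fragment count corrected for transcript length and for the depth of the library) in at least 2 samples, as did 10893 genes in all.

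RNA-seq was compared between 3 Kdm6a-deficient samples (Kdm6aF/Y;Lyz2-Cre, samples 1, 2 and 3) and 2 wild-type samples (Kdm6aF/Y, samples 1 and 3), all treated with LPS, a bacterial lipopolysaccharide. Both groups carry the floxed Kdm6a allele, and the Lyz2-Cre knock-in, which recombines in myeloid cells, is present only in the Kdm6a-deficient group. The study's methods describe bone marrow from males aged 10 weeks, kept in M-CSF (10 ng/ml) for 6 days and then for 3 days in medium lacking it, and M1 polarisation by 24 h in LPS at 100 ng/ml. The LPS dose and time of the sequenced cells are not given separately, and the methods speak of pooled RNA. Whether each sample is its own mouse or culture is stated nowhere, so standard errors and p-values cover the scatter among these 5 samples, possibly technical in origin.

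IGF1 and IGF2 signal through the IGF1 receptor, a tyrosine kinase close to the insulin receptor. IGF2R, which is also the cation-independent mannose 6-phosphate receptor, carries IGF2 and lysosomal enzymes into the endosomal pathway and has no kinase of its own. Secreted binding proteins hold the IGFs outside the cell, and proteases that cut them release the ligand. Macrophages are a known source of IGF1 in injured and remodelling tissue.

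The 2 genes at the ends of the range of differences between genotypes, Igfbp3 at the low end and Igf1 at the high end, have unlike promoters. The 250 bases before each transcription start, from RefSeq on GRCm38.p6, are printed 5′ to 3′ on the strand of the gene, with each CG dinucleotide in capitals. The Igfbp3 window is chr11:7213924-7214173 on the minus strand, and the Igf1 window is chr10:87860861-87861110 on the plus strand.
Igfbp3: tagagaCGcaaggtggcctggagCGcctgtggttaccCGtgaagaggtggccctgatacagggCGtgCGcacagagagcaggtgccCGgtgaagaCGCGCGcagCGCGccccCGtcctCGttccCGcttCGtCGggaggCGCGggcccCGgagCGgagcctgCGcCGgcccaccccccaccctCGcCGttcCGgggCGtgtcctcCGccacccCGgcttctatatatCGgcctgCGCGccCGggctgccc
Igf1: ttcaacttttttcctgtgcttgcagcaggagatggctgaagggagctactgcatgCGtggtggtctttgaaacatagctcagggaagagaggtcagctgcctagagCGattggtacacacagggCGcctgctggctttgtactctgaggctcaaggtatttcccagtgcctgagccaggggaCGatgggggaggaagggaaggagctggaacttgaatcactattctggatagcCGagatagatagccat
The Igfbp3 window holds 32 CG, more than 95.4% of the 32851 promoter windows of this length in the RefSeq table, and the Igf1 window holds 5, more than 44.4% of them. The median window held 6. All 10 genes were found there, with 14 starts in all. Igf1r (42 CG), Igf2r (27), Igfbp7 (26) and Igfbp4 (22) also lie above the upper quartile of 16 CG, while Igfbp5 (10) and Igfbp6 (7) are nearer the median. Igf2 has 4 starts with 1, 10, 22 and 6 CG, and Igfbp2 has 2 starts with 14 and 11. Among the genes whose genotypes separated, Igf1r and Igfbp3 have the most CG, and Igf1 lies just below the median. No binding or histone mark was measured, and which start was used cannot be read from a value per gene.

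Binding protein transcripts far outnumbered those of ligands and receptors. Igfbp7 lay between 258 and 376 FPKM over all 5 samples, Igfbp4 between 161 and 203 FPKM, and Igfbp5 between 84.6 and 103 FPKM, and none of these ranges touched its neighbour's. The mean of Igfbp7 was above that of 98.3% of all tested genes. Igf2r (15.4 to 24.7 FPKM) and Igf1 (11.2 to 23.0 FPKM) came next, and their ranges overlapped, with Igf2r the higher of the pair in 3 of 5 samples. Below Igf1 and separate from it stood Igfbp2 (7.67 to 10.9 FPKM). The range of Igfbp3, 1.95 to 16.6 FPKM, spanned those of Igfbp2, Igf1r (3.47 to 4.73 FPKM) and Igf2 (3.06 to 4.11 FPKM), and these last genes overlapped each other too, with Igf1r the higher in 4 of 5 samples. Igfbp6 was lowest in every sample, at 0.958 to 2.62 FPKM.

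**Figure D1:**
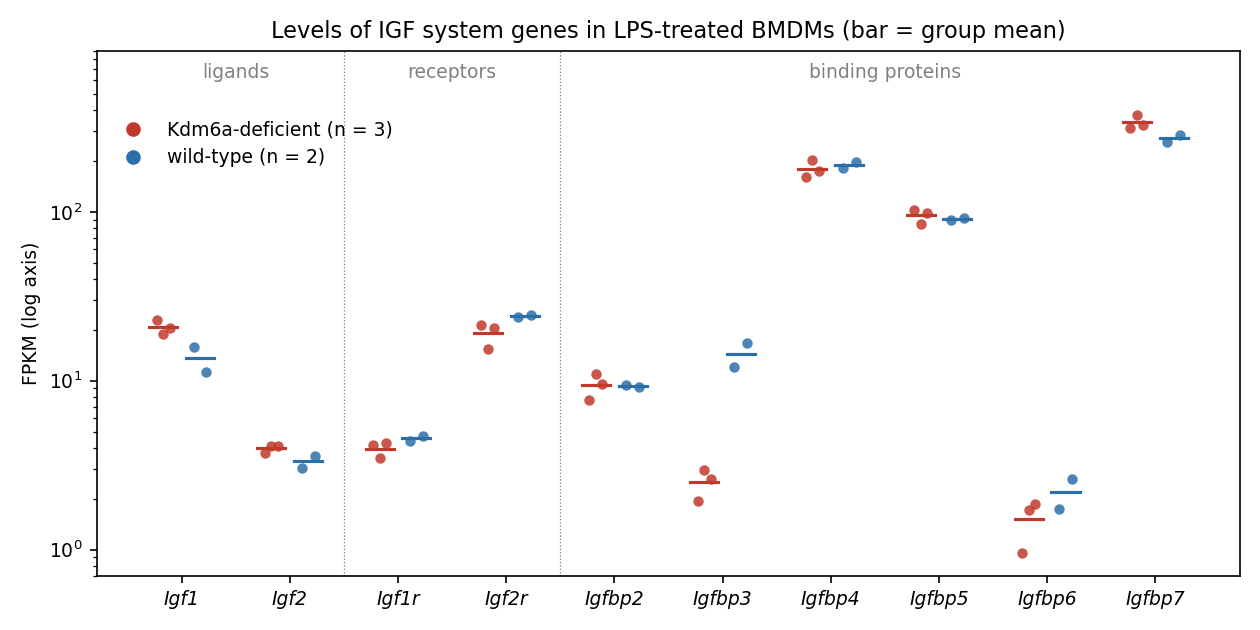
FPKM of the 10 IGF system genes on a log axis, with 1 point per sample (3 Kdm6a-deficient in red, 2 wild-type in blue) and a bar at each group mean. The Igfbp3 points of the genotypes lie far apart, at 1.95 to 2.97 FPKM in Kdm6a-deficient samples and 12.1 to 16.6 FPKM in wild-type samples, while those of Igfbp2, Igfbp4, Igfbp5 and Igfbp6 overlap.

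Between genotypes, 3 of the 10 genes (Igf1, Igf2 and Igfbp7) were higher in every Kdm6a-deficient sample than in every wild-type sample, and 3 (Igf1r, Igf2r and Igfbp3) were lower in every one. The other 4 overlapped. Among all tested genes 16.7% separated upward in this way and 19.2% downward, and since the family was chosen with these values known, nothing is read from its count. The median log2 difference of the 10 genes was −0.04, against 0.01 for all tested genes. Leaving out a sample can only add genes to those that separate.

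**Figure D2:**
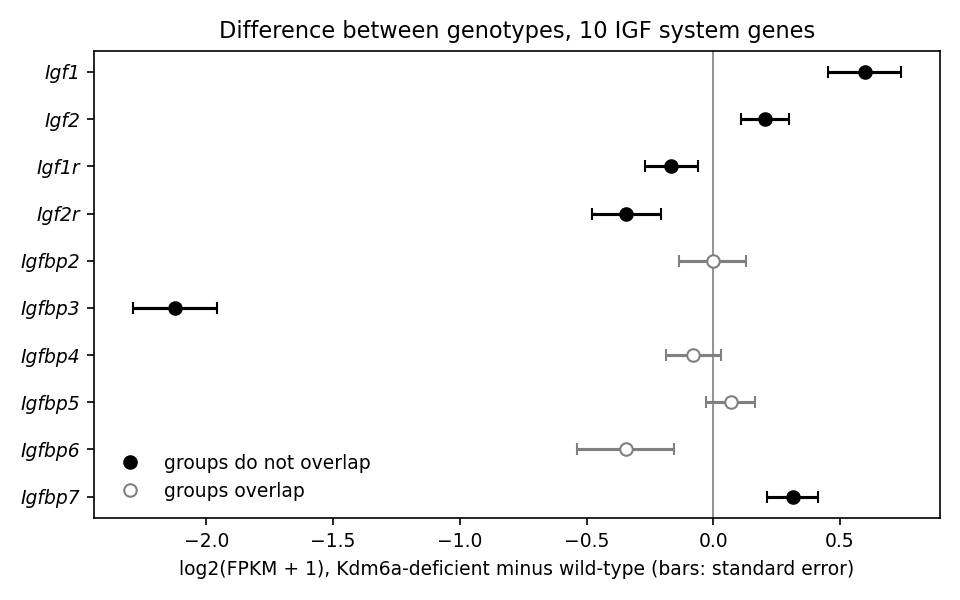
Difference in log2(FPKM + 1), Kdm6a-deficient minus wild-type, with limma's standard error (n = 3 and 2), for each gene. Igfbp3 stands alone at −2.12, while the other 9 genes lie between −0.35 and 0.60; filled points mark genes whose groups do not overlap.

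Igf1, the main growth-promoting ligand after birth, was at 23.0, 18.95 and 20.5 FPKM in Kdm6a-deficient samples 1, 2 and 3, against 15.9 and 11.2 FPKM in wild-type samples 1 and 3. The wild-type samples differed from each other more than any pair of Kdm6a-deficient samples did. The means were 20.8 ± 2.03 FPKM in Kdm6a-deficient samples (SD, n = 3) and 13.6 ± 3.27 FPKM in wild-type samples (SD, n = 2). On the log2(FPKM + 1) scale, on which every difference below is given, Igf1 was higher by 0.60 (standard error 0.15), the highest value of the family and rank 120 among all tested genes. The size of this difference rests on which wild-type sample is used: it was 0.83 with wild-type sample 1 left out and 0.37 with sample 3 left out.

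Igf2, an imprinted fetal growth factor, was lower than Igf1 in every sample. It had 3.75, 4.11 and 4.09 FPKM in Kdm6a-deficient samples, against 3.06 and 3.60 FPKM in wild-type samples. The groups were separate by a gap of 0.153 FPKM only, with a log2 difference of 0.20 (standard error 0.095) that was 0.11 with wild-type sample 1 left out and 0.30 with sample 3 left out. Igf2os is transcribed antisense to Igf2, and no source says that the counting used strand, so reads of the pair cannot be told apart. The summed ligand level was 26.7, 23.1 and 24.6 FPKM in Kdm6a-deficient samples, against 18.9 and 14.8 FPKM in wild-type samples, with all Kdm6a-deficient samples above. The ratio of Igf1 to Igf2 overlapped between genotypes, at 6.12, 4.62 and 5.01 in Kdm6a-deficient samples and 5.19 and 3.12 in wild-type samples.

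Igf1r, the signalling receptor, had 4.14, 3.47 and 4.29 FPKM in Kdm6a-deficient samples, against 4.37 and 4.73 FPKM in wild-type samples. The groups were 0.0815 FPKM apart, less than the spread within either, and the log2 difference was −0.17 (standard error 0.10). Igf2r was at 21.5, 15.4 and 20.6 FPKM in Kdm6a-deficient samples and at 23.99 and 24.7 FPKM in wild-type samples. Its log2 difference was −0.34 (standard error 0.14), and Kdm6a-deficient sample 2 lay well below the other Kdm6a-deficient samples. Without that sample the differences were −0.09 for Igf1r and −0.20 for Igf2r. The ratio of Igf2r to Igf1r was 5.19, 4.44 and 4.80 in Kdm6a-deficient samples, against 5.49 and 5.21 in wild-type samples, so the groups were narrowly separate. Airn, the imprinted antisense RNA, overlaps the 5′ end of Igf2r, and its reads cannot be told apart from those of Igf2r without strand.

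Kdm6a-deficient sample 2 departed from samples 1 and 3 with transcript length, and the IGF genes range from 1112 to 11409 bases. Over all tested genes of known length, sample 2 minus the mean of samples 1 and 3 had a median of 0.16 on the log2 scale among the 3614 shortest transcripts (median 1617 bases), 0.01 among the 3612 of middle length (3096 bases) and −0.16 among the 3612 longest (5469 bases). Of the 5 IGF genes in the longest class, which starts at 4037 bases, Igf1r, Igf2r, Igf1 and Igfbp5 were lower in sample 2, with values of −0.22, −0.43, −0.19 and −0.25, while Igf2, of 4722 bases, went against the class at 0.06. Igfbp2, Igfbp6 and Igfbp7, all of 1307 bases or less, were higher in it, with values of 0.32, 0.19 and 0.23. Igfbp3 and Igfbp4, of middle length, were both higher in it by 0.28. With a linear trend on length removed from each sample, an alternative chosen after seeing the data, the difference between genotypes was 0.63 for Igf1, −0.11 for Igf1r, −0.30 for Igf2r, −2.14 for Igfbp3 and 0.27 for Igfbp7.

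**Figure D3:**
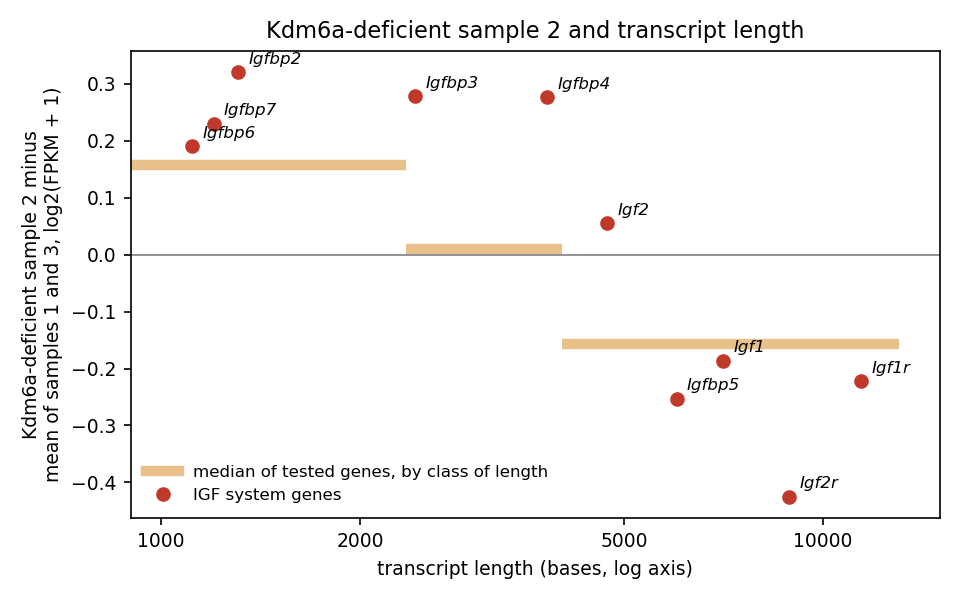
Log2(FPKM + 1) in Kdm6a-deficient sample 2 minus the mean of samples 1 and 3, against transcript length in bases on a log axis, for the 10 genes (points). Bands are the medians of all tested genes in 3 classes of length, 0.16, 0.01 and −0.16, with the outermost bands clipped to the plotted range; Igf1r, Igf2r, Igf1 and Igfbp5 lie below 0, and Igf2, also in the longest class, lies at 0.06.

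Igfbp3, the main IGF carrier of serum, was the member that differed most. It was at 1.95, 2.97 and 2.63 FPKM in Kdm6a-deficient samples, against 12.1 and 16.6 FPKM in wild-type samples. The highest Kdm6a-deficient sample lay 9.16 FPKM below the lowest wild-type sample, and the mean was 5.71-fold lower in Kdm6a-deficient samples. The authors' mean normalized count, which for wild-type also drew on a further sample not analysed here, was 130 in Kdm6a-deficient and 681 in wild-type cells, so the low level rests on more than a few reads. The log2 difference was −2.12 (standard error 0.17), the lowest of the 10893 tested genes and rank 3 by absolute size. It lay between −2.34 and −1.91 with any single sample left out, and was −2.47 with a pseudocount of 0.1 FPKM in place of 1. In this bulk RNA, fewer cells of a type and less RNA per cell cannot be told apart.

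Igfbp7, which binds IGFs with low affinity and is secreted into the matrix of vessels, was the most abundant gene of the family. It had 314, 376 and 327 FPKM in Kdm6a-deficient samples and 258 and 286 FPKM in wild-type samples. The groups were 27.2 FPKM apart, and the log2 difference was 0.31 (standard error 0.10), between 0.24 and 0.39 over all alternatives. Its groups thus separated in the opposite direction to those of Igfbp3.

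The remaining binding proteins overlapped between genotypes. Igfbp2 was at 7.67, 10.9 and 9.53 FPKM in Kdm6a-deficient samples and at 9.40 and 9.22 FPKM in wild-type samples, with a log2 difference of −0.002 (standard error 0.13). Igfbp4, an inhibitor of IGF action that the protease PAPP-A cuts, was at 161, 203 and 174 FPKM in Kdm6a-deficient samples, against 181 and 197 FPKM in wild-type samples, with a log2 difference of −0.08 (standard error 0.11). Both wild-type values of Igfbp2 and Igfbp4 fell within the range of the Kdm6a-deficient samples. Igfbp5, which binds to extracellular matrix, had 103, 84.6 and 98.9 FPKM in Kdm6a-deficient samples, against 89.1 and 92.4 FPKM in wild-type samples, with a log2 difference of 0.07 (standard error 0.10). Igfbp6, which prefers IGF2, had 0.958, 1.70 and 1.87 FPKM in Kdm6a-deficient samples and 1.74 and 2.62 FPKM in wild-type samples, with a log2 difference of −0.35 (standard error 0.19). Only Kdm6a-deficient sample 3 reached the wild-type range of Igfbp6, and the difference was −0.18 without Kdm6a-deficient sample 1, −0.15 when wild-type sample 3 was left out and −0.55 when wild-type sample 1 was. Its mean normalized count, by the authors, was 35.1 in Kdm6a-deficient and 46.7 in wild-type cells, the lowest of the family.

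As shares of the summed binding protein FPKM, Igfbp3 made up 0.331%, 0.437% and 0.429% in Kdm6a-deficient samples, against 2.20% and 2.75% in wild-type samples. Igfbp7 made up 53.3%, 55.3% and 53.3% in Kdm6a-deficient samples, against 46.8% and 47.4% in wild-type samples, and the genotypes were separate for both shares. Igfbp7, Igfbp4 and Igfbp5 together held 97.7% to 98.2% of the sum in Kdm6a-deficient samples and 95.3% to 95.8% in wild-type samples. The sum itself overlapped, at 589, 679 and 614 FPKM in Kdm6a-deficient samples and 551 and 605 FPKM in wild-type samples. Binding protein FPKM per ligand FPKM was 22.03, 29.5 and 24.99 in Kdm6a-deficient samples, against 29.1 and 40.8 in wild-type samples, which overlapped by Kdm6a-deficient sample 2.

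**Figure D4:**
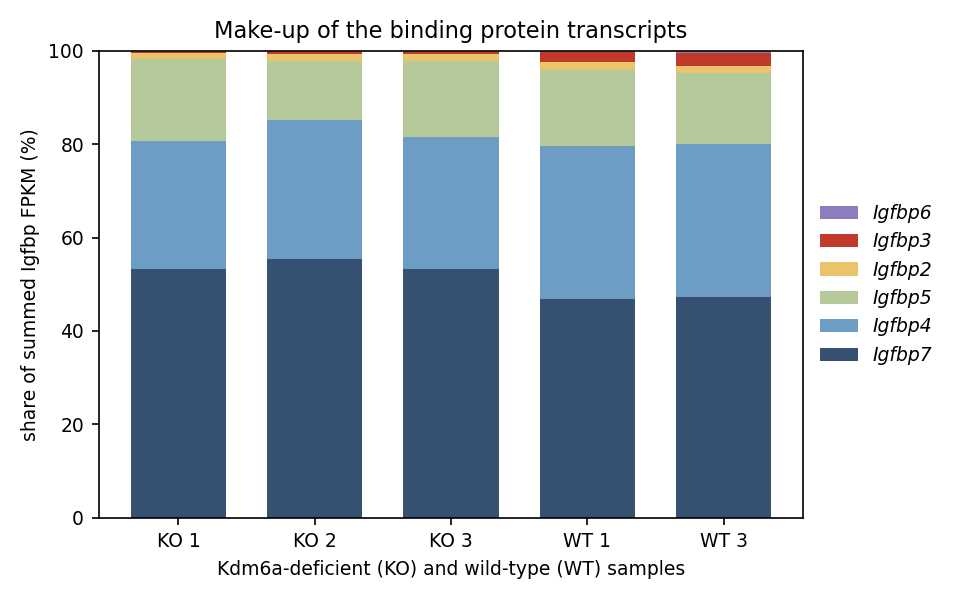
Share of each binding protein gene in the summed Igfbp FPKM of a sample, in percent, for Kdm6a-deficient samples 1, 2 and 3 and wild-type samples 1 and 3. Igfbp7 takes 53.3% to 55.3% of the Kdm6a-deficient bars and 46.8% to 47.4% of the wild-type bars, and the Igfbp3 band is visible mainly in the wild-type bars.

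Other genes of the IGF system were not part of the chosen family and were tested by limma with Benjamini-Hochberg adjustment over all 10893 tested genes. Of all tested genes 3.91% passed an adjusted p of 0.05, 1.73% higher and 2.18% lower in Kdm6a-deficient samples. Of 91 further IGF genes tested, 1 rose and 6 fell, with a median log2 difference of −0.003. All 7 belong to the proteases and inhibitors that act on binding proteins or to the genes with an IGFBP-type domain. Leaving out Kdm6a-deficient sample 3 or wild-type sample 3 left 4 of these calls, and leaving out Kdm6a-deficient sample 2 gave 12 calls.

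Among 17 proteases and inhibitors tested, 1 rose and 5 fell. Mmp3, stromelysin, a matrix metalloproteinase able to cut IGFBP3, was at 14.8, 19.5 and 20.3 FPKM in Kdm6a-deficient samples, against 4.81 and 5.87 FPKM in wild-type samples. It rose by 1.59 (adjusted p = 0.00264 from limma, standard error 0.15). Mmp2, gelatinase A, had 74.0, 77.9 and 74.7 FPKM in Kdm6a-deficient samples, against 121 and 131 FPKM in wild-type samples, a log2 difference of −0.73 (adjusted p = 0.00283 from limma, standard error 0.07). Stc2, a stanniocalcin that inhibits PAPP-A, was at 1.80, 1.51 and 1.79 FPKM in Kdm6a-deficient samples, against 3.93 and 3.89 FPKM in wild-type samples, with a log2 difference of −0.86 (adjusted p = 0.00371 from limma, standard error 0.09). The metalloproteinases thus did not move in a single direction, and these 3 calls held in all 12 alternatives run.

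Plat, tissue plasminogen activator, had 3.04, 3.69 and 3.68 FPKM in Kdm6a-deficient samples, against 6.26 and 7.11 FPKM in wild-type samples. Its log2 difference was −0.78 (adjusted p = 0.0099 from limma), and the call was lost without Kdm6a-deficient sample 3 (adjusted p = 0.0528 from limma) or wild-type sample 3 (0.0905). Mmp9, gelatinase B, and Plau, urokinase, both named after their values were seen, had log2 differences of −0.50 (adjusted p = 0.0138) and −0.38 (adjusted p = 0.0347 from limma). The Mmp9 call was lost without Kdm6a-deficient sample 3 (adjusted p = 0.0932 from limma) or wild-type sample 3 (0.169), and that of Plau without any single sample other than Kdm6a-deficient sample 2 (0.0913 to 0.328). Pappa, the PAPP-A gene, was at 13.1, 7.12 and 12.1 FPKM in Kdm6a-deficient samples and at 11.01 and 9.96 FPKM in wild-type samples, and was also named after its values were seen.

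Of 7 tested genes whose products carry an IGFBP-type domain, 1 fell. Wisp1, a CCN family matrix protein, was at 20.1, 17.2 and 20.9 FPKM in Kdm6a-deficient samples, against 38.9 and 36.1 FPKM in wild-type samples. Its log2 difference was −0.92 (adjusted p = 0.00371 from limma, standard error 0.10) and its call held in all 12 alternatives. Under alternatives on all 5 samples Kazald1, Wisp2 and Crim1 passed as well: Kazald1 with 1 FPKM required in every sample, Wisp2 with quantile normalization, Crim1 and Wisp2 with a replicate block, and all 3 with the length trend removed.

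**Figure D5:**
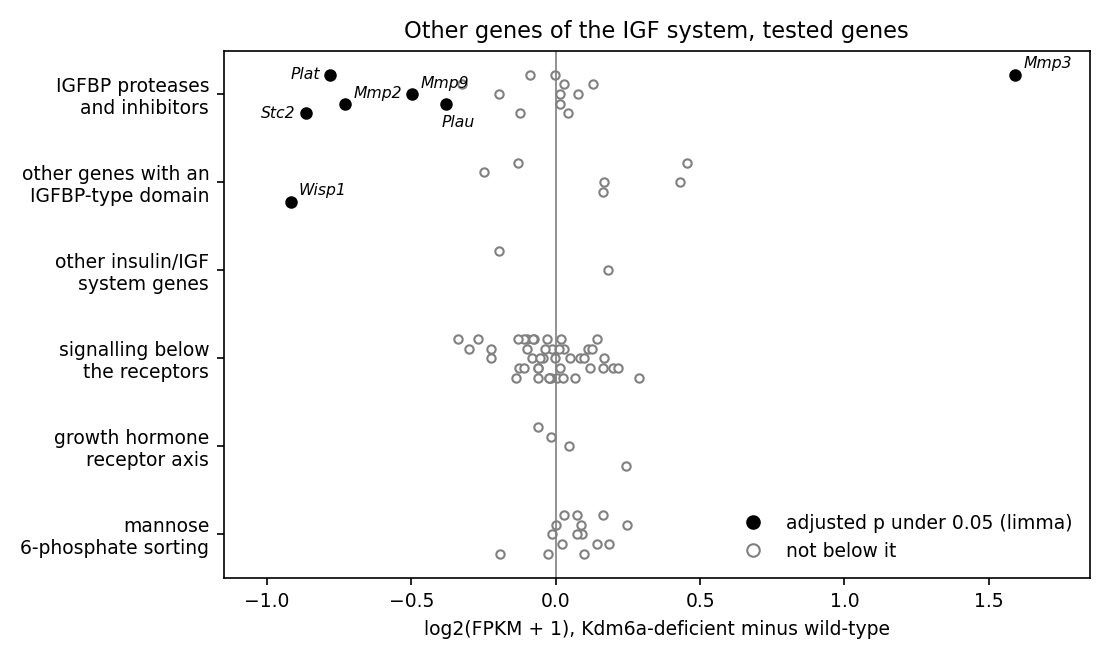
Log2 difference, Kdm6a-deficient minus wild-type, of 91 tested genes of the IGF system outside the chosen family, by list, with 1 point per gene. The 7 filled, named points passed an adjusted p of 0.05 from limma: Mmp3 lies at 1.59 and the other 6 between −0.92 and −0.38.

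No gene of the signalling steps below the receptors passed the limma test (0 of 46), nor did any of the growth hormone receptor axis (0 of 4), of mannose 6-phosphate sorting (0 of 15) or of the remaining insulin and IGF genes (0 of 2). At an unadjusted p under 0.05 these lists held 6, 1, 2 and 0 genes. The share of all tested genes below that unadjusted threshold was not computed, so nothing is read from these counts. Of the signalling genes, Grb10 and Eif4ebp1 passed without Kdm6a-deficient sample 2 (log2 differences of −0.28 and −0.31, adjusted p = 0.0453 and 0.0373 from limma), Grb10 with the length trend removed (adjusted p = 0.022), and 4 genes, these and Rack1 and Socs3, with a replicate block, all lower; the other 3 lists had no call under any alternative. Irs1, an adaptor of the insulin and IGF1 receptors, had 3.87, 3.43 and 4.18 FPKM in Kdm6a-deficient samples, against 4.96 and 4.67 FPKM in wild-type samples, a log2 difference of −0.27 (adjusted p = 0.216 from limma). Its partner Irs2 overlapped between genotypes, at 1.40 to 2.08 FPKM in Kdm6a-deficient samples and 1.77 to 2.18 FPKM in wild-type samples (adjusted p = 0.827 from limma). Insr, the insulin receptor, had 3.73, 2.83 and 3.88 FPKM in Kdm6a-deficient samples, against 4.203 and 3.98 FPKM in wild-type samples (log2 difference −0.20, adjusted p = 0.495 from limma). Like Igf1r it was low in Kdm6a-deficient sample 2.

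Ghr, the growth hormone receptor, overlapped between genotypes, at 4.84 to 5.72 FPKM in Kdm6a-deficient samples and 4.73 to 6.79 FPKM in wild-type samples (adjusted p = 0.881 from limma). M6pr, the cation-dependent mannose 6-phosphate receptor that shares lysosomal enzymes with Igf2r, was at 230, 228 and 229 FPKM in Kdm6a-deficient samples, against 199 and 210 FPKM in wild-type samples. That put it about an order of magnitude above Igf2r in FPKM, with a log2 difference of 0.17 (adjusted p = 0.28 from limma). Igfbp1, Ins1 and Ins2 were listed at 0 in all samples, and Igfals, the subunit that joins IGF1 and IGFBP3 in serum, stayed at 0.184 FPKM or less.

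Over the 5 samples, the log2 profiles closest to that of Igf1, each centred on its own mean, were those of A630033H20Rik, Tlr7 and Msr1, with root mean square differences of 0.01, 0.03 and 0.04. Tlr7, an endosomal RNA sensor, was at 63.2, 51.8 and 57.5 FPKM in Kdm6a-deficient samples, against 46.04 and 31.7 FPKM in wild-type samples. Msr1, a scavenger receptor of macrophages, was at 126, 104 and 115 FPKM in Kdm6a-deficient samples, against 93.1 and 61.1 FPKM in wild-type samples. Both were picked for likeness to Igf1 over these same samples, so sharing its low wild-type sample 3 follows from the choice. The profiles closest to Igfbp3 were less like it: those of Crabp2, which carries retinoic acid in the cell, Lrrc17 and Avil, with root mean square differences of 0.21, 0.29 and 0.41. Crabp2 was at 2.33, 2.89 and 2.42 FPKM in Kdm6a-deficient samples and at 11.7 FPKM in both wild-type samples.

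The libraries held markers of macrophages and of other cells, and some of these moved with the IGF genes. Kdm6a itself had 2.81, 1.77 and 2.44 FPKM in Kdm6a-deficient samples, against 3.72 and 2.91 FPKM in wild-type samples (log2 difference −0.38, adjusted p = 0.268 from limma). A value per gene does not single out the floxed part. Lyz2, the gene that carries the Cre, had a log2 difference of −1.10 (adjusted p = 0.00722 from limma), a call lost in 4 of 12 alternatives, with adjusted p up to 0.154. Of 14 macrophage markers, none at 0, 1 rose (Cd163, a scavenger receptor, by 1.30, adjusted p = 0.000734 from limma) and 1 fell (Lyz2). Cd163 was at 2.74 to 2.96 FPKM in Kdm6a-deficient samples and at 0.573 and 0.55 FPKM in wild-type samples. It passed the filter of 1 FPKM in 2 samples only through the group where it was high, so its p-value is a description. The summed macrophage marker level was 12620 to 14020 FPKM in Kdm6a-deficient samples and 22890 to 23860 FPKM in wild-type samples. Without Lyz2 the other 13 overlapped, at 4358 to 4898 FPKM in Kdm6a-deficient samples and 4329 to 4503 FPKM in wild-type samples.

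Stromal markers were abundant in both genotypes. Of 17 tested, 2 rose and 6 fell. Among all tested genes 1.73% rose and 2.18% fell by the same test, the background for every marker list here. The summed level of the list was 4511 to 4634 FPKM in Kdm6a-deficient samples and 5486 to 5825 FPKM in wild-type samples. No marker of the list was at 0. The sum leaned on Col1a1, Col1a2 and Sparc, the most abundant markers, named after their values were seen. They were at 653 to 738, 841 to 880 and 983 to 1010 FPKM in Kdm6a-deficient samples. In wild-type samples they had 991 to 1114, 1275 to 1378 and 1278 to 1358 FPKM. Without Col1a1, Col1a2 and Sparc, the rest of the list did not sum lower in Kdm6a-deficient samples. Acta2 and Tagln, also abundant, were higher in every Kdm6a-deficient sample. Dcn, a matrix proteoglycan, had 11.9, 10.9 and 11.3 FPKM in Kdm6a-deficient samples, against 30.5 and 30.0 FPKM in wild-type samples (log2 difference −1.34, adjusted p = 0.000444 from limma). Lum, a related proteoglycan, differed by −0.88 (adjusted p = 0.00989), while Vcam1 and Cxcl12, which bone marrow stroma uses to hold blood cells, were higher by 0.91 (adjusted p = 0.00207) and 0.54 (adjusted p = 0.00804 from limma). Lum (0.496 to 0.864 FPKM in Kdm6a-deficient samples) passed the filter only through the wild-type group. Its p-value and its place among the 6 stromal falls are therefore a description. Of 8 tested endothelial markers, 3 fell and none rose. They were Cdh5, Tie1 and Cldn5, with log2 differences of −0.95, −0.86 and −0.98 (adjusted p = 0.00275, 0.00413 and 0.00345 from limma). Tie1 (0.503 to 0.654 FPKM in Kdm6a-deficient samples) and Cldn5 (0.379 to 0.602 FPKM) passed the filter only through the wild-type group. The count of falls is therefore tilted by the filter. The summed endothelial level was 27.2 to 32.9 FPKM in Kdm6a-deficient samples and 42.4 to 43.5 FPKM in wild-type samples, with no marker at 0. The stromal sum, through Col1a1, Col1a2 and Sparc, and the endothelial sum separated in the direction of Igfbp3. The macrophage sum did so only through Lyz2, the gene that carries the Cre. Osteoblast sums separated in that direction too, at 703 to 773 FPKM in Kdm6a-deficient and 873 to 895 FPKM in wild-type samples. So did monocyte (484 to 540 against 663 to 707 FPKM) and osteoclast sums (204.5 to 231.3 against 232 to 241.1 FPKM). Most of the osteoblast sum was Spp1 (635 to 702 against 812 to 840 FPKM). Most of the monocyte sum was Fn1 (321 to 373 against 508 to 554 FPKM), and both genes were named after their values were seen. Without Spp1 and Fn1, the rest of each list did not sum lower in Kdm6a-deficient samples. Adipocyte sums (306.9 to 311.5 against 170.9 to 175 FPKM) and those of dendritic and T or NK markers separated in the direction of Igfbp7. Neutrophil and B cell sums overlapped. The part of any of these in Igfbp3 or Igfbp7 was not tested.

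The marker counts rested on single samples. Without wild-type sample 3, 1 stromal marker rose and 1 fell, without wild-type sample 1, 2 rose and 1 fell, and without Kdm6a-deficient sample 3, 1 rose and 2 fell, and Dcn and Vcam1 kept their calls in each of these. Cxcl12 missed the threshold in all 3 (adjusted p = 0.0674 to 0.0974 from limma), at log2 differences of 0.51 to 0.56, against 0.54 with all 5 samples. Without either wild-type sample Cdh5 was the only endothelial marker called, since Tie1 and Cldn5 then fell below the filter on low values. Of 7 adipocyte markers only 3 were high enough to test (Lpl, Pparg and Fabp4), and these rose. Plin1 was at 0 in every sample, and Adipoq, at 0.264 FPKM or less, Lep and Cidec were also below the filter. The Fabp4 call was lost in 6 of 12 alternatives (adjusted p up to 0.112 from limma) and that of Pparg without wild-type sample 3 (0.0607). Among osteoclast markers 3 of 6 fell (Ctsk, Dcstamp and Mmp9), and with wild-type sample 3 left out limma called 0 of the 6, with 4 at an unadjusted p under 0.05. Of 6 monocyte markers 2 rose (Ly6c2 and Plac8) and 1 fell (Fn1), and of 11 neutrophil markers 1 rose (Ctsg). Without Kdm6a-deficient sample 3 limma called no monocyte or neutrophil marker. Of 8 dendritic and 7 T or NK cell markers measured, only 2 (Itgax and Ccr7) and 1 (Cd4) could be tested, and these rose. The other 6 of each list were below the filter, so neither list speaks for its cell type. Ctsg (0.331 and 0.649 FPKM in wild-type samples) and Ccr7 (0.202 and 0.338 FPKM) passed the filter only through Kdm6a-deficient samples. None of 5 osteoblast or 3 B cell markers was called by limma (4 and 0 at an unadjusted p under 0.05). For the unadjusted counts of markers, too, the share of all tested genes was not computed.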

How the data were processed

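RNA-seq libraries of 5 samples were read from a single deposited table. In it the authors gave FPKM per gene and sample, which the study's methods say were computed after TopHat with Cufflinks; versions are not given there. Bowtie 0.12.2 and the builds mm8 and mm9 stand in the submitters' processing notes without a role, so no gene coordinates were taken from the table. The deposited table also holds a signal value per genotype, the mean normalized count by the authors, which sums to 18933944 in Kdm6a-deficient and 19003670 in wild-type cells and for wild-type drew on a further sample not analysed here. Columns with the authors' fold change, p-value and adjusted p were not used. Every column of values per sample was mapped.

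Steps of 1 read in the mean counts gave relative depths of 0.946, 1.00 and 0.957 for Kdm6a-deficient samples 1, 2 and 3, and 0.963 and 1.09 for wild-type samples 1 and 3. Total reads per sample are unknown, so intervals for counting error were not computed. In all, 5665 genes were listed at 0 in every sample, and 27 symbols turned into dates were restored by GeneID.

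The values were FPKM and not counts, so limma-trend was fitted to log2(FPKM + 1) of all 5 samples, Kdm6a-deficient minus wild-type, without a block, over the 10893 genes that reached 1 FPKM in 2 or more samples, with Benjamini-Hochberg adjustment and a threshold of 0.05. On this scale changes of genes near 1 FPKM come out too small. The fit was tested on simulated data. Standard errors are limma's, and means with SD are of FPKM. The genes described, the lists and the tests were chosen with earlier results of these data known. Named genes were all 10 family members, up to 4 called genes per list by adjusted p, 7 fixed genes of the pathway, the 3 profiles most like those of Igf1 and Igfbp3, and Kdm6a and Lyz2; others are marked. GENCODE vM21 gave a transcript length for 99.5% of genes tested. Alternatives were a pseudocount of 0.1 FPKM, 2 other filters, quantile normalization, median of ratios scaling, the fit without each sample in turn, a replicate block and, added after the data were seen, removal of a trend with length. R 4.3.3, limma 3.58.1, Python 3.11.15, pandas 2.3.3, numpy 2.4.6 and matplotlib 3.10.9 were used.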

Additional observations from a re-analysis of the deposited data

How the results depend on the processing

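Of 119 recomputed differences of the 10 IGF genes, 114 moved by less than the spread between replicates and 5 moved by more. Those that moved were Igf1 (0.83 with wild-type sample 1 left out and 0.37 with sample 3 left out), Igf2 (0.11 and 0.30) and Igfbp3 (−2.47 with a pseudocount of 0.1 FPKM). Many of the 114 could not have moved further, so their number is no measure of stability. A filter leaves a gene's own difference as it was. Leaving out a Kdm6a-deficient sample, or adding the replicate block, cannot shift it by more than that spread. Igfbp6 could not be fitted with 1 FPKM required in all 5 samples. The differences of Igfbp2, near 0 with all samples, took both signs (−0.11 to 0.12). The number of the 10 genes whose groups did not overlap was 6, and 6 to 8 with a sample left out, which can only keep or raise it; over all tested genes the share was then 43.9% to 57.0%. Of all tested genes 426 were called, against 820 with the length trend removed (chosen after seeing the data), 996 with the replicate block, and 81 to 678 with a sample left out. Of the 91 other IGF genes 7 were called, against 12 with the length trend removed, 14 with the replicate block and 4 to 12 with a sample left out. Of the cell type markers 26 were called, and 7 to 32 with a sample left out. Higher calls were 44.1% of all calls with 5 samples, 69.4% with wild-type sample 1 left out and 56.8% with sample 3 left out; the cause was not tested. The replicate numbers do not pair the samples by any source, and deviations of same-numbered samples correlated at 0.432 (number 1) and −0.144 (number 3) across genes. Under the block, Kdm6a-deficient sample 2 has no partner and drops out of the difference, so member differences equal those without it. DESeq2 was not run, since it needs counts per sample. At this depth the lowest member, Igfbp6, rests on a mean of 35.1 normalized counts in Kdm6a-deficient cells.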
